A study of Danio rerio with 24 samples.

Results

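The cytosolic sulfotransferases described here are 7 zebrafish genes, sult6b1, sult1st1, sult1st2, sult1st3, sult2st1, sult2st2 and sult2st3. They were found as transcript clusters (the array's unit for a gene or gene fragment) whose only annotated gene symbol was 1 of these names. The 7 genes held 8 of the 61240 transcript clusters tested, since sult2st1 had 2 clusters (12988606 and 12988620) and each of the other genes had 1. The genes were chosen by their log2 signals across all 4 groups, which were known when the set was proposed, so their values are given as a description without a test.

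Whole zebrafish embryos of the 5D wildtype strain were kept in vehicle (0.1% DMSO) or in 2 µM TDCIPP, a chlorinated organophosphate flame retardant supplied from a DMSO stock, from 0.75 h post-fertilization (hpf). Embryos were collected at 2 hpf, during cleavage and before the zygotic genome is broadly active, or at 6 hpf, during gastrulation. The 4 groups were TDCIPP at 2 hpf, DMSO at 2 hpf, TDCIPP at 6 hpf and DMSO at 6 hpf, each with 3 pools of 25 embryos and 2 Zebrafish Gene 1.0 ST arrays per pool. Each value below is the mean log2 signal of the 2 arrays of a pool, so that a difference of 1 is a 2-fold change.

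Cytosolic sulfotransferases move a sulfonate group from the donor PAPS (3′-phosphoadenosine 5′-phosphosulfate) onto small molecules, which makes them more water soluble and usually ends their activity. The vertebrate SULT1 family acts mainly on phenols, among them thyroid hormones, estrogens, catecholamines and many foreign chemicals, and the SULT2 family acts mainly on hydroxysteroids. In adult vertebrates they are best known from liver and intestine, organs that have not formed at the stages sampled here, and sult6b1 belongs to a family whose substrates are less well described.

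Stage markers separated the pools labelled 2 hpf from those labelled 6 hpf in both treatments. The paper reports delayed or arrested epiboly, an early step of development, in embryos kept in TDCIPP. Whether TDCIPP and DMSO pools at 6 hpf had reached the same stage was not tested, so differences between them may include a difference in stage. The mean log2 signal of 15 maternal genes (among them buc, dazl and zar1) was 7.82 to 8.06 in TDCIPP pools at 6 hpf and 9.63 in every TDCIPP pool at 2 hpf, and 7.64 to 7.95 in DMSO pools at 6 hpf, against 9.43 to 9.64 in DMSO pools at 2 hpf. The mean of 14 zygotic mesendoderm genes (among them tbxta, gsc and sox17) was 8.31 to 8.49 in TDCIPP pools at 6 hpf, against 4.82 to 4.87 in TDCIPP pools at 2 hpf. In DMSO pools it was 8.27 to 8.71 at 6 hpf, against 4.60 to 5.02 at 2 hpf. Array medians were 4.32 to 4.46 for the 2 hpf samples and 4.47 to 4.54 for the 6 hpf samples, and for 15 of the 24 arrays the best correlated array was its partner from the same pool.

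sult6b1 was the only member whose group means spanned more than 1 log2 unit. In TDCIPP embryos its log2 signals were 11.25, 11.08 and 11.51 at 6 hpf, against 5.04, 4.98 and 5.01 at 2 hpf. In DMSO embryos they were 10.72, 10.61 and 10.66 at 6 hpf, against 5.31, 5.12 and 4.92 at 2 hpf. Every pool at 6 hpf lay above every pool at 2 hpf in both treatments, as for 24.5% of all clusters in TDCIPP embryos and 22.6% in DMSO embryos. The 6 hpf signal was 6.27 ± 0.12 log2 units above that at 2 hpf in TDCIPP embryos, a 77.1-fold difference, and 5.54 ± 0.12 log2 units above it in DMSO embryos, a 46.6-fold difference (SE of the fit, n = 3 pools per group). The 2 hpf level lay not far above the array medians of that time (4.32 to 4.46). Whether it exceeds the array background, on which the fold values depend, was not tested. Of the 61240 clusters, 69 (0.113%) had a larger increase in TDCIPP embryos and 160 (0.261%) in DMSO embryos. The gene was chosen with these signals known, so its rank is a description. In whole embryos, more cells of a type that holds a transcript and more of that transcript per cell cannot be told apart.

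At 6 hpf, sult6b1 was higher in TDCIPP embryos than in DMSO embryos, with no overlap between pools. Of all clusters, 5.46% showed such an upward separation. limma called 0 of the 61240 clusters in this comparison at an adjusted p of 0.1. Its mean log2 signal was 11.28 ± 0.22 in TDCIPP embryos and 10.66 ± 0.05 in DMSO embryos (SD, n = 3 each), and the lowest TDCIPP pool (11.08) was above the highest DMSO pool (10.72). The difference was 0.62 ± 0.13 log2 units (SE), or 1.54-fold, and 168 of all clusters (0.274%) had a higher one. Of the 6 pools, TDCIPP replicate 3 was the highest, and the spread among TDCIPP pools was wider than that among DMSO pools. The single arrays ranged from 11.03 to 11.54 for TDCIPP and from 10.49 to 10.73 for DMSO. The 2 arrays of a pool hold 1 RNA extract, so they add no replicates to the pools.

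At 2 hpf the treatments overlapped for sult6b1. Its log2 signal was 5.01 ± 0.03 in TDCIPP embryos and 5.12 ± 0.20 in DMSO embryos (SD, n = 3 each), a difference of -0.11 ± 0.11 (SE). The 2 arrays of DMSO replicate 3 at 2 hpf read 4.56 and 5.27, which was the widest gap between arrays of 1 pool for this gene. The median gap over the 12 pools was 0.11. In order of level, TDCIPP embryos at 6 hpf stood first, then DMSO embryos at 6 hpf, and the 2 groups at 2 hpf did not differ beyond their spread. The difference between the treatments at 6 hpf exceeded that at 2 hpf by 0.72 ± 0.17 log2 units (SE), and 182 clusters (0.297%) had a higher value of this quantity.

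**Figure D1:**
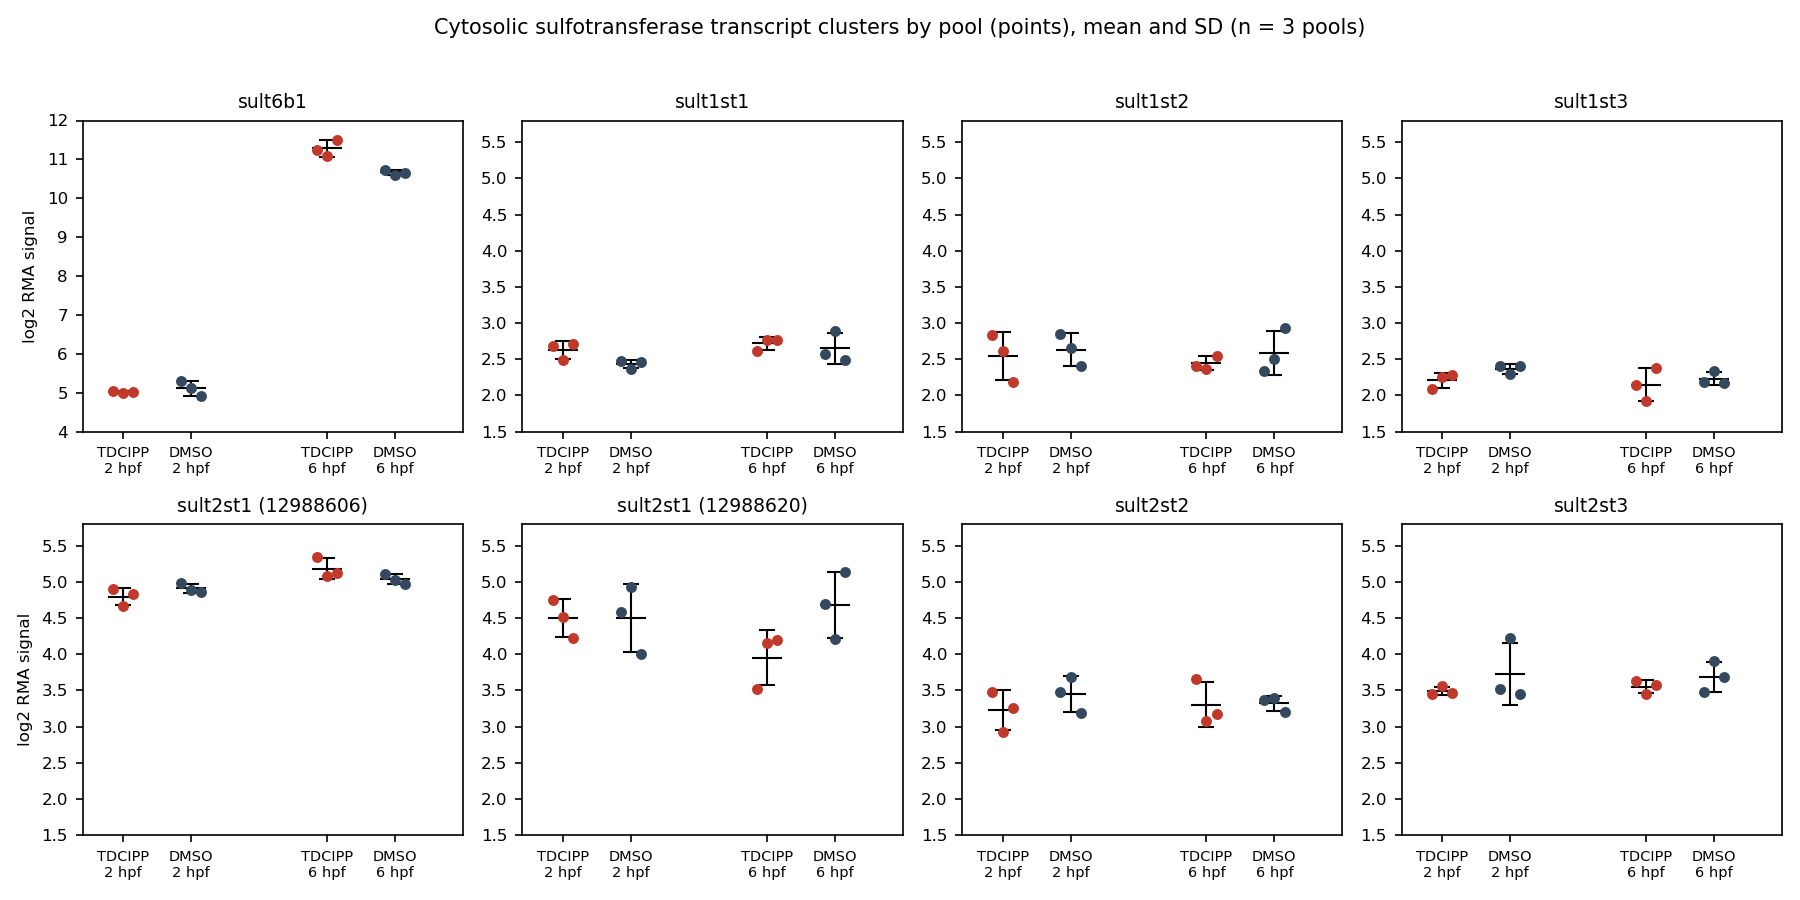
Log2 RMA signal (y axis) of the 8 sulfotransferase clusters in the 4 groups (x axis), with each pool as a point, TDCIPP in red and DMSO in dark blue, and the mean and SD of 3 pools in black. The y axis of sult6b1 has its own range, and its pools at 6 hpf (10.61 to 11.51) lie far above those at 2 hpf (4.92 to 5.31), while the other clusters stay between 1.92 and 5.35.

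Marker lists of stage and embryonic layers were set beside the difference in sult6b1 at 6 hpf. For the enveloping layer, the thin outer epithelium of the early embryo, 11 genes were measured. They included the keratins krt4, krt5 and krt8 and the tight junction genes cldne and cldnf. Their mean log2 signal was 9.68 to 9.96 in TDCIPP pools and 9.39 to 9.73 in DMSO pools at 6 hpf, ranges that overlapped. All 11 genes had a higher mean in TDCIPP embryos, with a median difference of 0.23 against -0.00073 over all clusters. None of the 11 passed limma's test at an adjusted p of 0.1. An unadjusted p under 0.05 was found for 3 of the 11, a larger share than the 5.48% of all clusters. At 2 hpf their mean was 4.64 to 4.67 in TDCIPP pools and 4.65 to 4.82 in DMSO pools, and 3 of 11 had a higher mean in TDCIPP embryos. Of the 15 maternal genes, 11 had a higher mean in TDCIPP embryos at 6 hpf, with a median difference of 0.15, and of the 14 zygotic mesendoderm genes 7 did, with a median of -0.02. None of either list passed the test at 6 hpf. An unadjusted p under 0.05 was found for 0 of the 15 maternal genes. It was found for 4 of the 14 mesendoderm genes, also a larger share than the 5.48% of all clusters. The 9 yolk syncytial layer genes averaged 6.62 to 6.76 in TDCIPP pools and 6.57 to 6.81 in DMSO pools at 6 hpf, ranges that overlapped, and 7 of the 9 had a higher mean in TDCIPP embryos (median 0.07). The part of any of these lists, or of a delay of TDCIPP embryos, in the difference of sult6b1 was not tested.

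The genes whose profiles over the 12 pools were most like that of sult6b1 were gata3 (Pearson's r = 0.9992), foxd5 (r = 0.9992) and lrwd1 (r = 0.9989). gata3 encodes a zinc finger transcription factor, foxd5 a forkhead transcription factor and lrwd1 a protein linked to the origin recognition complex. Over all pools this likeness mostly restates the difference between the 2 time points, since 267 of the 19291 other genes had r above 0.99. Within the 6 pools at 6 hpf, r was 0.98 for gata3, 0.93 for foxd5 and 0.92 for lrwd1, and within the 6 pools at 2 hpf it was 0.52, 0.58 and 0.59 in the same order. The pools share their 4 groups and their normalization, and 3 genes were picked out of many, so these values describe likeness alone.

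**Figure D2:**
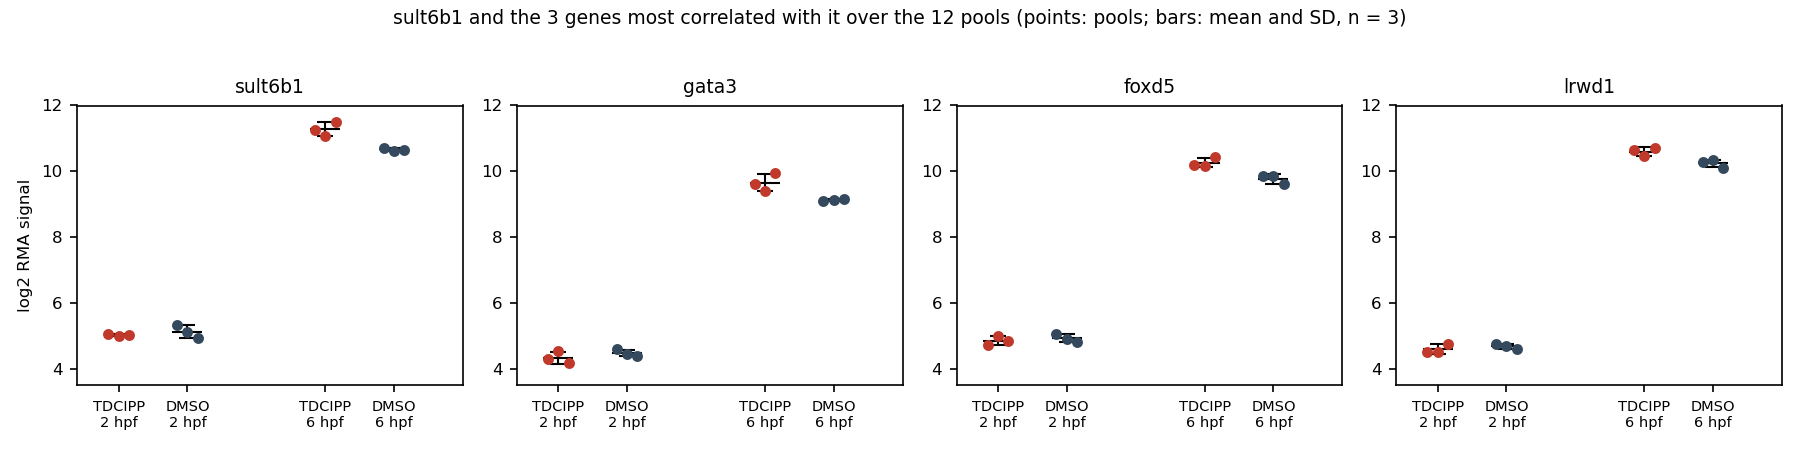
Log2 RMA signal (y axis) of sult6b1, gata3, foxd5 and lrwd1 in the 4 groups (x axis), with pools as points, TDCIPP in red, DMSO in dark blue, and mean and SD of 3 pools in black. Each of the 4 genes has its 3 TDCIPP pools above its 3 DMSO pools at 6 hpf and overlapping pools at 2 hpf.

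gata3 had log2 signals of 9.61, 9.41 and 9.94 in TDCIPP embryos and 9.10, 9.14 and 9.17 in DMSO embryos at 6 hpf, a difference of 0.52 ± 0.14 (SE). At 2 hpf its means were 4.33 ± 0.17 in TDCIPP embryos and 4.48 ± 0.10 in DMSO embryos (SD, n = 3 each). foxd5 differed between TDCIPP and DMSO embryos at 6 hpf by 0.48 ± 0.12 and lrwd1 by 0.36 ± 0.11 log2 units (SE). In sult6b1, gata3, foxd5 and lrwd1 the TDCIPP pools at 6 hpf ranked the same way, with replicate 3 highest and replicate 2 lowest. gata3, foxd5 and lrwd1 were picked for their likeness to sult6b1 over these same pools, so the shared order is no separate support.

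The genes on both sides of sult6b1 in the RefSeq annotation of the GRCz12tu assembly passed no test between 2 and 6 hpf. foxg1b, a forkhead gene, changed by 0.08 ± 0.17 in TDCIPP embryos (SE, limma adjusted p = 0.769) and by 0.00029 ± 0.17 in DMSO embryos (adjusted p = 0.999). vipb, which encodes a neuropeptide precursor, changed by 0.13 ± 0.11 in TDCIPP embryos (adjusted p = 0.453) and by -0.12 ± 0.11 in DMSO embryos (adjusted p = 0.483). Neither passed the test in any of the comparisons made. Over all pools foxg1b read 3.26 to 4.03 and vipb 3.98 to 4.49, near or under the array medians (4.32 to 4.54). Whether the signals of these neighbours exceed the array background was not tested.

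The other 6 members, with 7 clusters, kept log2 signals between 1.92 and 5.35 in all 12 pools. Between 6 and 2 hpf their differences ranged from -0.55 to 0.39 in TDCIPP embryos and from -0.14 to 0.21 in DMSO embryos. Between TDCIPP and DMSO, the 6 hpf differences ranged from -0.72 to 0.15 and the 2 hpf differences from -0.24 to 0.19. sult1st1, sult1st2, sult1st3, sult2st2 and sult2st3 lay under the median of all clusters in 12 of 12 pools. No detection call was used here, so whether these signals exceed the array background was not tested.

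Of the SULT1 genes, sult1st1 had 2.62, 2.77 and 2.77 in TDCIPP embryos and 2.57, 2.89 and 2.49 in DMSO embryos at 6 hpf, which overlapped. At 2 hpf it had 2.68, 2.49 and 2.71 in TDCIPP embryos and 2.47, 2.37 and 2.46 in DMSO embryos, so that the lowest TDCIPP pool (2.49) lay just above the highest DMSO pool (2.47). That difference was 0.19 ± 0.10 log2 units (SE), and 3.10% of all clusters showed such an upward separation at 2 hpf. sult1st2 had 2.41, 2.37 and 2.55 in TDCIPP embryos and 2.34, 2.50 and 2.93 in DMSO embryos at 6 hpf. Its 2 hpf pools also overlapped, with means of 2.54 ± 0.33 in TDCIPP embryos and 2.63 ± 0.22 in DMSO embryos (SD, n = 3 each). sult1st3 had 2.15, 1.92 and 2.38 in TDCIPP embryos and 2.18, 2.33 and 2.17 in DMSO embryos at 6 hpf, a range that held all the DMSO pools. At 2 hpf it had 2.09, 2.26 and 2.28 in TDCIPP embryos and 2.40, 2.29 and 2.41 in DMSO embryos, which did not overlap. The difference was -0.16 ± 0.10 (SE), and 4.29% of all clusters showed such a downward separation.

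Of the SULT2 genes, sult2st1 gave opposite directions on its 2 clusters at 6 hpf. Cluster 12988606 read 5.35, 5.08 and 5.12 in TDCIPP embryos and 5.11, 5.03 and 4.97 in DMSO embryos, a difference of 0.15 ± 0.11 (SE) with overlapping pools. Cluster 12988620 read 3.52, 4.15 and 4.19 in TDCIPP embryos and 4.70, 4.21 and 5.13 in DMSO embryos, a difference of -0.72 ± 0.25 (SE), or 0.606-fold. On this cluster every TDCIPP pool lay below every DMSO pool, as for 5.50% of all clusters, and 124 of all clusters had a lower difference. Its single arrays overlapped, with TDCIPP arrays up to 4.35 and DMSO arrays down to 3.96. The spread on it was wide within a pool as well as between pools, since the 2 arrays of DMSO replicate 1 at 6 hpf differed by 1.48 log2 units. Without DMSO replicate 3 at 6 hpf the difference was -0.50, and without DMSO replicate 2 it was -0.96.

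Cluster 12988620 read 4.75, 4.52 and 4.23 in TDCIPP embryos and 4.59, 4.93 and 4.00 in DMSO embryos at 2 hpf, which overlapped, and 6 of its 12 pools lay under the median of all clusters. Between 6 and 2 hpf it differed by -0.55 ± 0.27 in TDCIPP embryos, with all pools lower at 6 hpf, and by 0.17 ± 0.27 in DMSO embryos, with overlapping pools (SE). Cluster 12988606 ran the other way in TDCIPP embryos, with 5.18 ± 0.15 at 6 hpf, against 4.80 ± 0.12 at 2 hpf (SD, n = 3 each), a difference of 0.39 ± 0.10 (SE). In DMSO embryos its means were 5.04 ± 0.07 at 6 hpf and 4.91 ± 0.07 at 2 hpf (SD, n = 3 each). A further cluster annotated to both sult2st2 and sult2st1 was not counted as a member, and its pools lay between 2.19 and 2.70.

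sult2st2, which lies next to sult2st1 in the RefSeq order, had 3.66, 3.08 and 3.17 in TDCIPP embryos and 3.36, 3.40 and 3.20 in DMSO embryos at 6 hpf, a difference of -0.02 ± 0.16 (SE). At 2 hpf its means were 3.22 ± 0.28 in TDCIPP embryos and 3.45 ± 0.25 in DMSO embryos (SD, n = 3 each). sult2st3 had 3.63, 3.45 and 3.58 in TDCIPP embryos and 3.48, 3.90 and 3.68 in DMSO embryos at 6 hpf, a difference of -0.13 ± 0.13 (SE). At 2 hpf its DMSO replicate 2 (4.22) stood above its other 5 pools at that time, which lay between 3.45 and 3.56. Pools of both genes overlapped between treatments and between times. sult1st1 and sult1st2 are also neighbours in the RefSeq order, and whether near-identical copies share array probes was not tested.

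**Figure D3:**
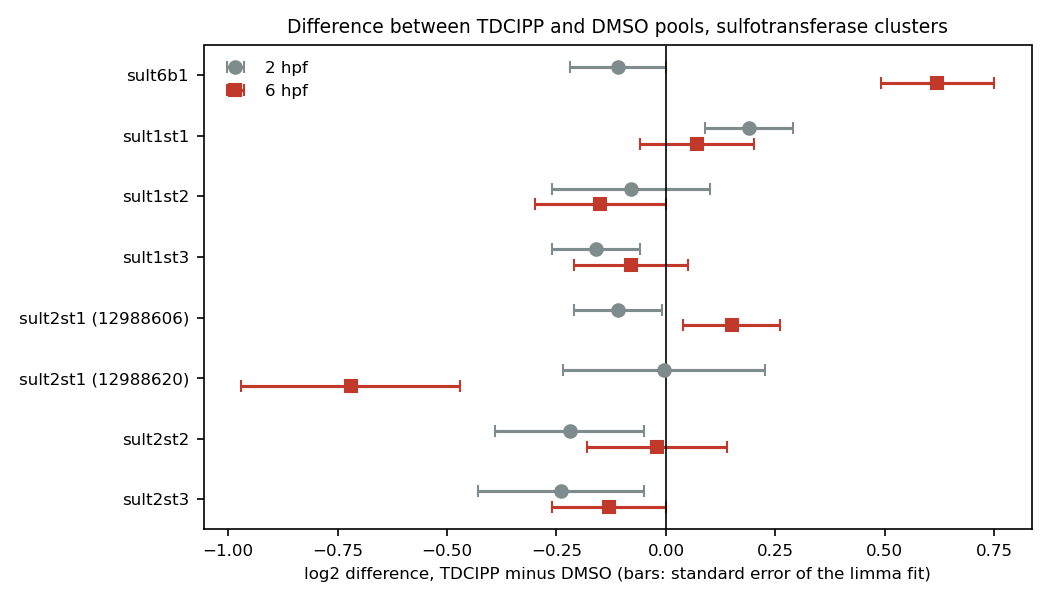
Log2 difference between TDCIPP and DMSO embryos (x axis, TDCIPP minus DMSO) for each sulfotransferase cluster (y axis), at 2 hpf (grey circles) and 6 hpf (red squares), with the SE of the fit as bars and 3 pools per group. At 6 hpf sult6b1 lies at 0.62 and sult2st1 cluster 12988620 at -0.72, and the other 6 clusters lie between -0.15 and 0.15.

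Counted over the 8 clusters, 3 had a higher and 5 a lower mean in TDCIPP embryos at 6 hpf, with a median difference of -0.05 against -0.00073 over all clusters. The TDCIPP and DMSO pools at 6 hpf did not overlap for 2 of the 8, sult6b1 upward and sult2st1 cluster 12988620 downward, and 11.0% of all clusters showed such a separation in either direction (5.46% upward and 5.50% downward). At 2 hpf, 1 cluster had a higher and 7 a lower mean in TDCIPP embryos, with a median of -0.11 against -0.0042. The pools at 2 hpf did not overlap for 2 of the 8, sult1st1 upward and sult1st3 downward, against 7.39% of all clusters (3.10% upward and 4.29% downward). Since the members were proposed with these values known, nothing is read from the counts. limma called 0 of the 61240 clusters (0%) at an adjusted p of 0.1 between TDCIPP and DMSO at 6 hpf, with 3356 (5.48%) at an unadjusted p under 0.05. It called 0 (0%) at 2 hpf, with 1697 (2.77%) at an unadjusted p under 0.05, and 0 (0%) for the difference between the treatment effects at the 2 times, with 2645 (4.32%) unadjusted. With single arrays as input and the pool as a random block, limma called 52 clusters (0.0849%) at 6 hpf, 0 at 2 hpf and 8 (0.0131%) for that difference. The fits at 6 hpf and at 2 hpf held the arrays of that time alone, and the fit for that difference held all 24.

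Between 6 and 2 hpf, the pools did not overlap for 3 of the 8 clusters in TDCIPP embryos, 2 higher at 6 hpf (sult6b1 and sult2st1 cluster 12988606) and 1 lower (sult2st1 cluster 12988620), against 45.9% of all clusters (24.5% higher and 21.4% lower at 6 hpf). In DMSO embryos they did not overlap for 2 of the 8, sult6b1 and sult1st1, both higher at 6 hpf, against 44.2% of all clusters (22.6% higher and 21.6% lower). The sult1st1 difference was 0.21 ± 0.11 log2 units (SE) in DMSO embryos.

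Of 13 further zebrafish cytosolic sulfotransferase genes listed, 7 had a cluster of their own (sult1st4, sult1st5, sult1st6, sult1st7, sult3st4, sult3st5 and sult5a1). Their signals were between 2.30 and 3.96 in all pools, under the array medians (4.32 to 4.54), and none passed limma's test in any comparison. Whether these 7 signals exceed the array background was not tested. The smallest p between TDCIPP and DMSO belonged to sult1st6 at 6 hpf, at -0.21 ± 0.13 (SE, adjusted p = 0.945), and to sult1st7 at 2 hpf, at -0.36 ± 0.10 (adjusted p = 1). Between 6 and 2 hpf it belonged to sult3st4 in TDCIPP embryos, at -0.21 ± 0.16 (adjusted p = 0.37), and to sult1st7 in DMSO embryos, at -0.28 ± 0.14 (adjusted p = 0.152). Of the 14 cytosolic sulfotransferase genes with a cluster of their own, sult6b1 was thus the only one whose signal differed by over 1 log2 unit between 2 and 6 hpf.

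The genes that supply and clear the sulfate donor changed with time in both directions. Of 13 measured, 4 rose and 6 fell between 2 and 6 hpf in TDCIPP embryos (limma adjusted p under 0.1, a threshold that 40.3% of all clusters passed, 20.7% upward and 19.5% downward). In DMSO embryos 4 rose and 6 fell as well (39.9% of all clusters passed, 20.0% upward and 19.9% downward). The sulfate transporter genes slc26a1 and slc13a4 were among those that rose, while slc26a2, another sulfate transporter gene, fell by 0.73 in TDCIPP embryos (adjusted p = 0.000598) and fell by 0.34 in DMSO embryos (adjusted p = 0.0673). slc26a1 had 7.96 ± 0.38 at 6 hpf, against 3.47 ± 0.07 at 2 hpf, in TDCIPP embryos (SD, n = 3 each), a rise of 4.49 log2 units (adjusted p = 5.8e-10). In DMSO embryos slc26a1 rose by 4.42 (adjusted p = 6.19e-10). slc13a4 rose by 3.35 in TDCIPP embryos (adjusted p = 1.18e-10) and by 3.32 in DMSO embryos (adjusted p = 1.19e-10). cth, whose enzyme makes cysteine, a source of inorganic sulfate, rose by 1.70 in TDCIPP embryos (adjusted p = 4.29e-07) and by 2.08 in DMSO embryos (adjusted p = 5.29e-08).

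The PAPS synthase genes did not move together. papss2a fell by 1.84 in TDCIPP embryos (adjusted p = 4.2e-06) and fell by 1.92 in DMSO embryos (adjusted p = 2.63e-06). Its paralog papss2b rose by 1.64 in TDCIPP embryos (adjusted p = 9.43e-07) and by 1.57 in DMSO embryos (adjusted p = 1.42e-06). papss1 differed by -0.12 in TDCIPP embryos (adjusted p = 0.436) and by -0.18 in DMSO embryos (adjusted p = 0.2). papss1 and papss2b, and the fall of slc26a2, were named after their values were seen. slc35b3, which carries PAPS into the Golgi, fell by 1.09 in TDCIPP embryos (adjusted p = 1.69e-06) and fell by 0.86 in DMSO embryos (adjusted p = 1.72e-05). bpnt1, which clears the nucleotide left after sulfonation, fell by 0.81 in TDCIPP embryos (adjusted p = 5.46e-05) and fell by 0.81 in DMSO embryos (adjusted p = 5.4e-05). slc26a1 also stands in the yolk syncytial layer list. Of that list 7 of 9 measured genes rose in TDCIPP embryos and 6 of 9 in DMSO embryos, beside 20.7% and 20.0% of all clusters.

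Between TDCIPP and DMSO, none of the 13 donor supply genes passed the test at either time. The smallest p at 6 hpf belonged to cth, at -0.21 ± 0.16 (SE, adjusted p = 0.953), and at 2 hpf to slc26a2, at 0.26 ± 0.13 (adjusted p = 1). papss1 averaged 7.98 ± 0.15 in TDCIPP embryos and 7.86 ± 0.11 in DMSO embryos at 6 hpf (SD, n = 3 each).

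Sulfotransferases of the Golgi, which act on proteoglycans, glycolipids and secreted proteins, and sulfatases, which remove sulfate, held more genes that fell than genes that rose over the same interval. Over all clusters, 20.7% rose and 19.5% fell in TDCIPP embryos, and 20.0% rose and 19.9% fell in DMSO embryos. Only 20856 of the 61240 clusters had 1 gene symbol, so these shares are not those of annotated genes. Of 37 Golgi sulfotransferase genes measured, 6 rose and 16 fell in TDCIPP embryos and 5 rose and 13 fell in DMSO embryos. Their median change was -0.11 in TDCIPP embryos and -0.13 in DMSO embryos, against 0.03 and 0.01 over all clusters. hs6st2, a heparan sulfate 6-O-sulfotransferase gene, rose by 1.88 in TDCIPP embryos (adjusted p = 5.46e-08) and by 2.06 in DMSO embryos (adjusted p = 2.09e-08). chst12a, a chondroitin sulfotransferase gene, fell by 1.58 in TDCIPP embryos (adjusted p = 7.5e-08) and fell by 1.51 in DMSO embryos (adjusted p = 1.1e-07). Of 16 genes measured in the sulfatase list, 1 rose and 7 fell in TDCIPP embryos and 0 rose and 7 fell in DMSO embryos, beside the same shares of all clusters. The list held sumf1 and sumf2, which encode sulfatase modifying factors and not sulfatases, and both were among those that fell in each treatment. The median change of the 16 genes of the list was -0.19 in TDCIPP embryos and -0.21 in DMSO embryos. ids, the lysosomal iduronate sulfatase gene, fell by 2.28 in TDCIPP embryos (adjusted p = 1.13e-09) and fell by 2.64 in DMSO embryos (adjusted p = 2.45e-10). The single sulfatase gene that rose was sgsh, by 0.43 in TDCIPP embryos (adjusted p = 0.0233).

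For other conjugation routes and the enzymes that handle sulfotransferase substrates, the counts between 2 and 6 hpf stand beside the 40.3% of all clusters called in TDCIPP embryos and the 39.9% called in DMSO embryos. The glucuronidation and xenobiotic receptor lists lay near that share in TDCIPP embryos, with 7 of 17 and 11 of 27 genes called, and nothing is read from how many genes of these lists were called. Of 22 glutathione conjugation genes measured, 4 rose and 7 fell in TDCIPP embryos and 6 rose and 5 fell in DMSO embryos. mgst2, a membrane glutathione transferase gene, rose by 1.74 in TDCIPP embryos (adjusted p = 1e-06) and by 1.61 in DMSO embryos (adjusted p = 2.17e-06). gstp1.2, a glutathione transferase gene, fell by 1.59 in TDCIPP embryos (adjusted p = 1.82e-08) and fell by 1.63 in DMSO embryos (adjusted p = 1.29e-08). Of 17 glucuronidation genes measured, 1 rose and 6 fell in TDCIPP embryos and 2 rose and 7 fell in DMSO embryos. Of these, ugp2b, whose enzyme makes the precursor of the glucuronic acid donor, fell by 1.16 in TDCIPP embryos (adjusted p = 8.41e-07) and fell by 1.06 in DMSO embryos (adjusted p = 2.08e-06). Of 7 genes of methyl, acetyl and glycine conjugation measured, 1 rose and 3 fell in each treatment.

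Of 30 steroid and thyroid hormone enzyme genes measured, 5 rose and 9 fell in TDCIPP embryos and 5 rose and 8 fell in DMSO embryos. hsd20b2, a hydroxysteroid dehydrogenase gene, rose by 3.04 in TDCIPP embryos (adjusted p = 3.48e-08) and by 2.92 in DMSO embryos (adjusted p = 4.94e-08). hsd3b7, a gene of bile acid synthesis, fell by 2.94 in TDCIPP embryos (adjusted p = 2.28e-09) and fell by 3.12 in DMSO embryos (adjusted p = 1.18e-09). Of 27 genes of xenobiotic receptors and their partners, 6 rose and 5 fell in TDCIPP embryos and 6 rose and 7 fell in DMSO embryos. hnf4a, which encodes a nuclear receptor of liver and gut and is also in the yolk syncytial layer list, rose by 3.46 in TDCIPP embryos (adjusted p = 1.45e-09) and by 3.60 in DMSO embryos (adjusted p = 9.2e-10). nr0b2a, a nuclear receptor corepressor gene, rose by 2.97 in TDCIPP embryos (adjusted p = 1.51e-08) and by 2.73 in DMSO embryos (adjusted p = 3.34e-08).

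**Figure D4:**
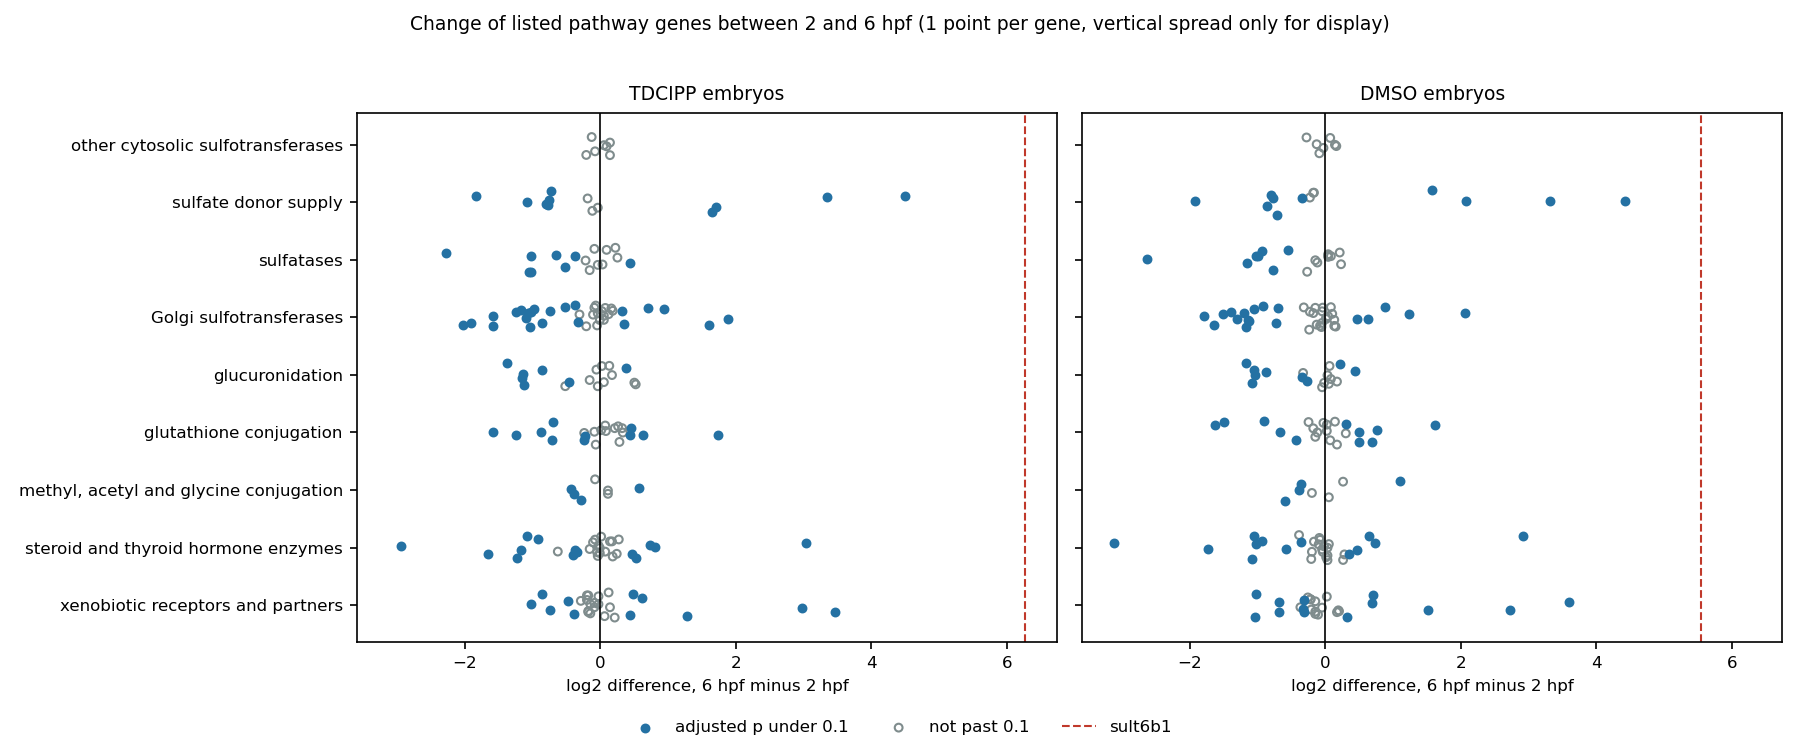
Log2 difference between 6 and 2 hpf (x axis, 6 hpf minus 2 hpf) for each measured gene of the 9 pathway lists (y axis), in TDCIPP embryos (left) and DMSO embryos (right), with filled points for genes past an adjusted p of 0.1 in limma and a dashed line at sult6b1 (6.27 in TDCIPP embryos and 5.54 in DMSO embryos). The 7 other cytosolic sulfotransferase genes lie near 0, and no listed gene reaches the sult6b1 line, with slc26a1 the nearest at 4.49 and 4.42.

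Over all 9 lists, 28 of 176 genes rose and 59 fell in TDCIPP embryos, beside 20.7% and 19.5% of all clusters. In DMSO embryos 29 rose and 56 fell, beside 20.0% and 19.9% of all clusters. The medians were -0.08 in TDCIPP embryos and -0.11 in DMSO embryos. Between TDCIPP and DMSO, limma called none of the 176 at either time. At an unadjusted p under 0.05 there were 6 at 6 hpf (5.48% of all clusters) and 5 at 2 hpf (2.77% of all clusters), and nothing is read from these counts. The smallest p at 6 hpf belonged to dio1, which encodes an iodothyronine deiodinase, at -0.44 ± 0.12 (SE, adjusted p = 0.748). Of the xenobiotic receptor genes the smallest belonged to ahrrb, the aryl hydrocarbon receptor repressor gene, at 0.39 ± 0.13 (adjusted p = 0.814). Of the glutathione genes, mgst2 had the smallest, at 0.30 ± 0.13 (adjusted p = 0.9).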

How the data were processed

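Total RNA of 12 pools of whole embryos was hybridized to 24 one-color arrays. The authors ran Robust Multichip Analysis (RMA) in Affymetrix Expression Console, with background correction, quantile normalization and a summary of probes per gene, and the deposited values are log2 signals. The submitters' notes also name Transcriptome Analysis Console and the build GRCz10, and versions of the software are not given in the sources used here. Quantile normalization makes every change relative to the other clusters. Depth has no meaning for arrays, whose number limits the precision.

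Of 75212 rows, 13972 with an ID below the first annotated cluster were left out. Of the clusters tested, 20856 had 1 symbol in the annotation of the array, and RefSeq held the gene ID of 20346. The 2 arrays of a pool hold 1 RNA extract and were averaged. Groups and replicates came from the sample titles. Treatments were compared within a time point, and times and the difference of effects in a fit of all 12 pools, with two-sided tests of limma 3.58.1 (lmFit, eBayes; R 4.3.3), Benjamini-Hochberg adjustment over 61240 clusters and a threshold of 0.1, as in the study. The paper kept the embryos in replicate beakers and does not state whether 1 beaker gave pools at both times. The fit of all 12 pools treated them as independent. Tables and figures used Python 3.11.15, pandas 2.3.3 and matplotlib 3.10.9. The code of the fits was checked on simulated pools with independent noise, and nothing about these data is read from that check. No sequences were used here.

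The members, lists and rules were chosen with earlier results of these data known. Every cluster of each member was given. A listed gene with several clusters was represented by that with the highest mean signal. Named list genes were drawn from up to 3 per direction with the smallest p among those called, or else the 1 with the smallest p, and genes alike to a member from the 3 with the highest r. The alternatives were a random block for the pool, a replicate block, a one-way ANOVA on pool means (the study ran its ANOVA on the array files), array 1 or array 2 alone, quantile normalization again, median centring, a minimum mean log2 signal of 5, all deposited rows, and leaving out each pool.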

Additional observations from a re-analysis of the deposited data

How the results depend on the processing

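For sult6b1, the difference between TDCIPP and DMSO at 6 hpf was 0.50 to 0.72 log2 units with each pool left out (0.50 without TDCIPP replicate 3), and at 2 hpf it was -0.21 to -0.01. Its difference between 6 and 2 hpf was 6.15 to 6.37 in TDCIPP embryos and 5.44 to 5.64 in DMSO embryos with each pool left out, and quantile normalization again gave 6.09 in TDCIPP embryos and 5.39 in DMSO embryos, each lower by more than 1 SD. Of 320 alternative values of member differences, 297 moved by less than 1 SD, and 49 changed sign, of which 1 was of sult6b1, at 2 hpf.

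The count of clusters called between TDCIPP and DMSO at 6 hpf was 0 on pool means, 1 with array 1 of each pool, 2 with a one-way ANOVA on the same pool means, 52 with the pool as a random block, and 0 to 2 with each pool left out (2 without DMSO replicate 3). That for the difference of effects was 0 on pool means, 8 with the random block, and 0 to 3 with each pool left out (3 without TDCIPP replicate 2 and 2 without DMSO replicate 3, both at 6 hpf). The random block fits put the correlation between arrays of a pool, beyond the group means, at 0.0603 at 6 hpf and 0.122 over all pools. With values so low, the 2 arrays of a pool counted almost as separate replicates. The 2 hpf count was 0 with each pool left out. The paper, with its ANOVA on the array files and the same threshold of 0.1, reports affected transcripts at 6 hpf and none at 2 hpf. Why its 6 hpf result differs from the 0 on pool means was not tested. The counts between 6 and 2 hpf were 21991 to 23056 in TDCIPP embryos and 22129 to 23403 in DMSO embryos with each pool left out, with 79 to 86 of the listed pathway genes in TDCIPP embryos and 77 to 84 in DMSO embryos. The main fit called 87 pathway genes in TDCIPP embryos and 85 in DMSO embryos. In the same order, median centring gave 97 and 105, quantile normalization again 98 and 99, and a minimum mean log2 signal of 5 gave 73 and 69. No listed pathway gene was called between the treatments with any pool left out. The causes were not tested. Median centring moved the median change of all clusters between 6 and 2 hpf to -0.11 in both treatments, against 0.03 in TDCIPP embryos and 0.01 in DMSO embryos as deposited.

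Deviations of TDCIPP and DMSO pools with the same replicate number correlated at 0.183, 0.122 and 0.089 at 6 hpf and 0.249, 0.052 and 0.118 at 2 hpf. Of the DMSO pools of its time, each TDCIPP pool correlated best with that of its own number. This is a hint from the data and not from the design. With the replicate block limma called 0 clusters between treatments at 6 hpf, 0 at 2 hpf and 0 for the difference of effects, 24805 between times in TDCIPP embryos and 24636 in DMSO embryos, with 88 of the pathway genes in TDCIPP embryos and 90 in DMSO embryos. With 3 pools a group, small differences in dim clusters such as those of the SULT1 genes were not resolved, and no array sequence was read to see which copies share probes.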
